A study of Mus musculus with 80 samples.

Results

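*Pax3*, *Lbx1*, *Met*, *Cxcr4*, *Meox1* and *Meox2* were followed in muscle stem cells (MuSCs) of 2 muscles before and after transplantation. These 6 of the 25899 genes in the expression table were taken by symbol as genes of the somite-derived progenitors that migrate to form limb and trunk muscle. MuSCs of the extraocular muscles (EOM, the muscles that move the eye) and of the *Tibialis anterior* (TA, a muscle of the lower hindlimb) came from 10 *Tg:Pax7-nGFP* donor mice on a C57BL/6;DBA2 F1/JRj background, males of 7 or 7.6 weeks at the first sort. Nuclear GFP in these mice is driven by *Pax7*, so the sorted population was defined by *Pax7* expression. RNA was sequenced from 500 EOM or TA cells of each donor (pre-graft). The remaining EOM and TA MuSCs of a donor were grafted into separate, cardiotoxin-injured TA muscles of 1 *Rag2*-/-;*γC*-/- recipient on a C57BL/6J background, a strain without mature lymphocytes, and GFP-positive cells were sorted again at day 21 by the labels (graft libraries, with a median of 35 cells for EOM and 26 for TA by the labels). The text of the study gives a later sort in places, and its list of samples gives more cells than the labels for some grafts. Both kinds of graft therefore regenerated in injured TA, and no graft into EOM is among the samples. After the quality thresholds of the study, 30 of 40 RNA libraries were compared, namely 8 pre-graft EOM, 8 pre-graft TA, 7 EOM grafts and 7 TA grafts.

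Limb and trunk muscles arise from somites, where the paired-box factor Pax3 marks the progenitors. Lbx1 is a homeobox factor switched on in those progenitors that leave the somite for the limb bud, the receptor Met and its ligand Hgf are needed for their release, and the chemokine receptor Cxcr4 with its ligand Cxcl12 acts in their migration. Meox1 and Meox2 are homeobox factors of the somite, and Meox2 acts in limb muscle formation and is also known from vascular endothelium. EOM arise from head mesoderm and form without Pax3. In adult muscle the paralogue Pax7 marks MuSCs of both muscles.

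Upstream sequence was available from RefSeq (GRCm38.p6) for 3 of the 6 genes, *Cxcr4*, *Met* and *Meox2*, and not for *Pax3*, *Lbx1* and *Meox1*. It is shown because limma called *Met* and *Cxcr4* lower in the grafts of both muscles and *Meox2* higher in EOM grafts, calls that did not all hold in other fits, as described below. The stretches end next to the start of the deposited gene and lie at chr1:128592300-128592549 on the minus strand (*Cxcr4*), chr6:17463707-17463799 on the plus strand (*Met*) and chr12:37108290-37108539 on the plus strand (*Meox2*), and capitals mark GC boxes (GGGCGG on either strand).
Cxcr4: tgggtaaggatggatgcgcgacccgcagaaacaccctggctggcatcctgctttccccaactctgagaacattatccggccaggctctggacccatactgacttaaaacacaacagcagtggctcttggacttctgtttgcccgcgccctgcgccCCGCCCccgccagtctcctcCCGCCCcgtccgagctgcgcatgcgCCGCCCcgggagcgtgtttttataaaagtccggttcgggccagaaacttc
Met: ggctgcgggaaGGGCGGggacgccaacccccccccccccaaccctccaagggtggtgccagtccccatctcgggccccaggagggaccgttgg
Meox2: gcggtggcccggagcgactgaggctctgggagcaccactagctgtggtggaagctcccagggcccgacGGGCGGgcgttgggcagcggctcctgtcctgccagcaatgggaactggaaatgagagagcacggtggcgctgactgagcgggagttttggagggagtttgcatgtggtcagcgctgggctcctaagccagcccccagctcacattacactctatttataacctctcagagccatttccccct
The *Cxcr4* stretch held 3 GC boxes, and the *Met* and *Meox2* stretches held 1 each. A GC box was present in 32.7% of the 32851 upstream stretches of 250 bases in the RefSeq table, a share that applies to *Cxcr4* and *Meox2* but not to the shorter *Met* stretch. TATAAA on either strand was present in the *Cxcr4* stretch, where the matches on both strands overlap, and in the *Meox2* stretch, and in 12.4% of all stretches. Only letters were matched, and no binding was measured.

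The pre-graft libraries held 963432 to 4169357 reads on genes and the graft libraries 1357233 to 2899135. Expression is given as log2 RPM, the base 2 logarithm of RPM (depth-scaled reads) as deposited. A gene with no read carries a value there that depends on the depth of the library (log2 RPM from -1.67 to 0.48 in those compared). Read numbers were recovered from these values and are given beside them. Sums of RPM over 10 MuSC markers fell between 11587 and 19634 in the pre-graft libraries and between 281 and 12038 in the grafts, while sums over 10 endothelial markers ranged from 150 to 2644 and from 295 to 7042. The share of reads in mitochondrial genes was 4.48% ± 1.99 in pre-graft EOM, 11.3% ± 7.58 in pre-graft TA, 31.4% ± 18.6 in EOM grafts and 24.9% ± 13.1 in TA grafts (SD, n = 8, 8, 7 and 7). Every MuSC marker was detected in each of the 4 groups. In these bulk libraries fewer cells of a type and less RNA per cell cannot be told apart.

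Genes were tested with limma, and a gene counted as called where its Benjamini-Hochberg adjusted p, over all genes tested, was below 0.05 and its log2 fold change exceeded 1 in size. In the comparison of TA with EOM before grafting, 5 of the 6 genes passed the filter on low values and 2, *Pax3* and *Lbx1*, were called higher in TA, against 1.26% of the 13217 genes tested (3.31% lower, 4.56% in either direction). Both had passed the filter through their TA libraries, so the count is a description. Between TA grafts and pre-graft TA all 6 were tested, 4 were called lower (*Pax3*, *Lbx1*, *Met* and *Cxcr4*) and 1 higher (*Meox1*), where 30.9% of 13076 genes were called lower, 3.79% higher and 34.7% in either direction. *Pax3* and *Lbx1* had passed the filter mostly through pre-graft TA and *Meox1* mostly through the grafts, so this count too is a description. Between EOM grafts and pre-graft EOM 3 were tested, *Met* and *Cxcr4* were called lower and *Meox2* higher, where 55.8% of 13094 genes were called lower, 3.51% higher and 59.3% in either direction. *Meox2* had passed the filter there mostly through the grafts. The median log2 fold change of all genes was -1.09 in TA grafts and -1.48 in EOM grafts, so lower calls were common after grafting, and values relative to this median stand beside those of *Met*, *Cxcr4*, *Pax3* and *Lbx1*.

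Between TA grafts and EOM grafts 0 of the 4 genes tested were called by limma, and the background was 0% of 12377 genes, although 452 genes had an unadjusted p under 0.05. Over all genes edgeR also called 0 there and DESeq2 called 3. *Meox1* had passed the filter there mostly through the TA grafts. For the EOM change less the TA change, which asks whether grafting moved a gene differently in cells of the 2 muscles, 1 of 6 genes was called (*Lbx1*), against 0.208% of 14428 genes (0.0554% higher, 0.152% lower). At an unadjusted p under 0.05 stood 1041 genes. *Lbx1* had passed the filter there mostly through pre-graft TA, so this count is again a description.

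**Figure D1:**
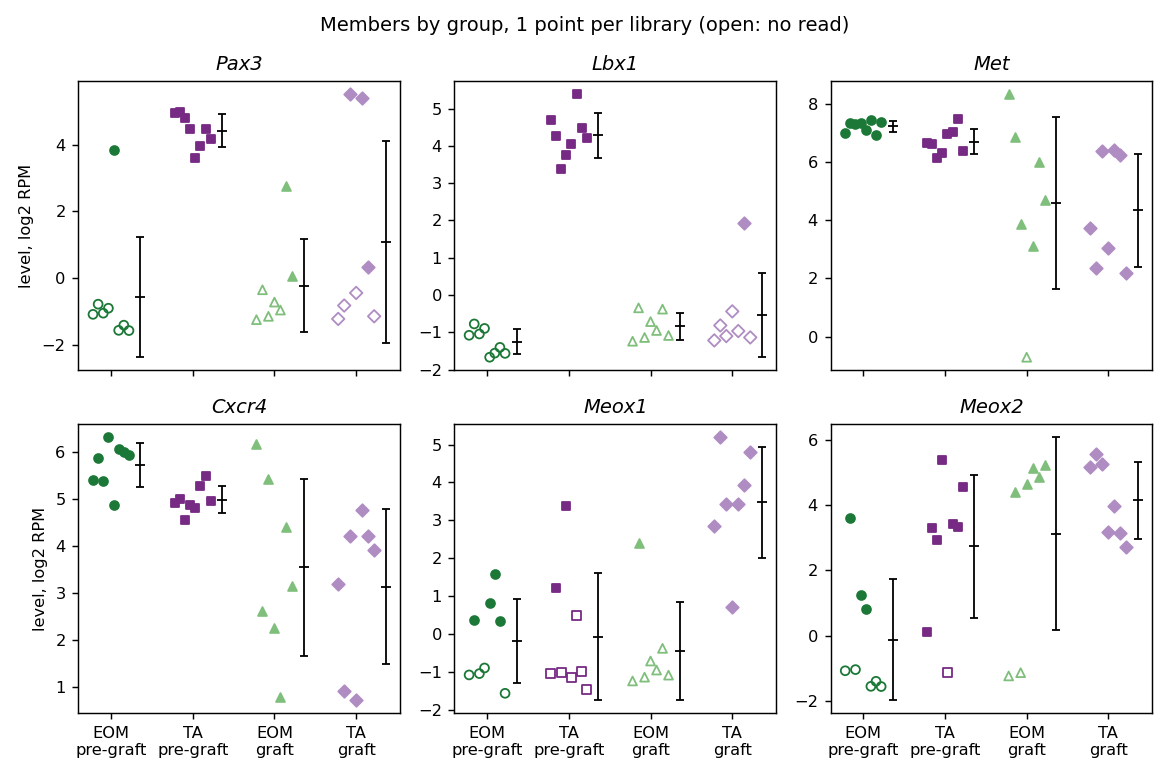
Level in log2 RPM (vertical axis) of each gene in the 30 libraries compared, by group, with the mean and SD as a bar beside the points and libraries without a read as open symbols. *Pax3* and *Lbx1* had reads in all 8 pre-graft TA libraries, *Lbx1* in 1 of the 14 grafts, and *Meox1* in all 7 TA grafts but 1 of 7 EOM grafts.

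*Pax3* (chromosome 1, 78101267 to 78197134, minus strand, GRCm38) had 10, 42.5 and 57 reads as lowest, median and highest value in the 8 pre-graft TA libraries, or 4.42 ± 0.49 log2 RPM (SD, n = 8). In pre-graft EOM 7 of 8 libraries had no read and 1, of mouse 2 of Experiment 2, had 41 reads. At 3.84 log2 RPM that EOM library lay inside the TA range, above the lowest TA library at 3.597, and the other 7 TA libraries lay above all EOM libraries. The difference was 4.98 ± 0.69 on the log2 scale (SE, limma, adjusted p = 3.95e-05) and 3.70 by edgeR (adjusted p = 0.0304). With the libraries that failed the quality thresholds included it was 3.77 and not called (limma, adjusted p = 0.0943). Those include the pre-graft EOM library of mouse 1 of Experiment 1, with 302 reads on genes. A gene without a read, such as *Pax3*, is written there as 10.7 log2 RPM, above every pre-graft TA library. In the failed pre-graft TA library of mouse 5 of Experiment 1 it is written as 4.40. Fits with all libraries that use these groups, here and below, carry such values.

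The EOM library with *Pax3* reads had 0 reads of *Lbx1*. It held 4 reads of *Sim1*, a transcription factor gene, and 8 reads of the laminin chain gene *Lamc3*, against 8 to 74 and 77 to 193 in pre-graft TA. These were the genes closest to *Pax3* across the 16 pre-graft libraries (Pearson r = 0.93 for *Sim1*, 0.95 for *Lamc3* and 0.90 for *Nr4a1*, an immediate-early nuclear receptor gene, among 13217 genes and given as a description). The same library stood apart in leukocyte markers, with a summed 1472 RPM over 9 genes against 21.9 to 98.4 in the other 7. Of these genes *Lyz2* alone reached 1131 RPM. Schwann cell and melanocyte markers, with sums of 23.8 to 3023 RPM over the 8 pre-graft EOM libraries, were not compared with *Pax3* by library. The part of such cells in the *Pax3* reads was not tested.

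After grafting, *Pax3* was unevenly detected. Among TA grafts it had 88 reads in mouse 2, 74 in mouse 4 and 2 in mouse 5 of Experiment 2 and no read in the other 4. The grafts of mice 2 and 4, at 5.51 and 5.40 log2 RPM, lay above every pre-graft TA library, and the other 5 lay below every one. The mean of the grafts, 1.09 ± 3.02 (SD, n = 7), was 3.33 ± 0.99 below pre-graft TA on the log2 scale in limma (SE, adjusted p = 0.0145), or -2.24 relative to the median gene. edgeR, which works on reads rather than the mean of logarithms, gave -0.33 (adjusted p = 0.890), and in Experiment 2 alone limma gave -2.77 (adjusted p = 0.0853).

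Of the TA grafts, those of mice 2 and 4 held 1066 and 530 *Pax7* reads, 67 and 66 cells by the labels and summed MuSC markers of 9034 and 7299 RPM. The TA graft of mouse 5, with 2 *Pax3* reads, had 67 cells by the label and summed MuSC markers of 6662 RPM, near those of mice 2 and 4. The 4 TA grafts without a *Pax3* read held 11 to 209 *Pax7* reads, and 16 to 26 cells by the labels. Per 100 reads of *Pax7*, *Pax3* stood at 8.26 and 14.0 in the grafts of mice 2 and 4 and at 0.81 in that of mouse 5, against 1.19, 2.65 and 4.89 as lowest, median and highest value in pre-graft TA. With each library scaled on its summed MuSC markers, an alternative added after the marker levels were seen, the difference was -0.90 (limma, adjusted p = 0.447). *Sdc4* alone had a median of 9919 RPM in pre-graft TA, where the median sum was 15514 RPM. In TA grafts these medians were 2194 and 3056 RPM. These sums and the scaling, here and below, therefore rest largely on *Sdc4*.

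Among EOM grafts, *Pax3* had 8 reads in mouse 5 and 2 in mouse 6 of Experiment 2 and none in the other 5. The 2 EOM grafts with *Pax3* held 119 and 154 *Pax7* reads, whereas EOM grafts with 1100, 530 and 268 *Pax7* reads held no *Pax3* read. The mean log2 RPM of -0.22 ± 1.40 (SD, n = 7) was 0.34 above pre-graft EOM (exact permutation test, two-sided, unadjusted p = 0.583, 1 of 6 such tests of genes below the filter). Without the EOM library of mouse 2 of Experiment 2 that difference was 0.97 (exact permutation p = 0.0350). No pre-graft EOM library then held a *Pax3* read, so most values on both sides were those written for libraries without a read. For *Lbx1*, with no read in either group, these written values alone differed by 0.35 without that library (exact permutation p = 0.0810). TA grafts exceeded EOM grafts by 1.31 (exact permutation p = 0.304). The order of the group means was pre-graft TA, TA grafts, EOM grafts and pre-graft EOM, where TA grafts lay below pre-graft TA by limma but not by edgeR, and neither TA grafts and EOM grafts nor EOM grafts and pre-graft EOM differed beyond their spread with all compared libraries. The EOM change less the TA change was 3.67 ± 1.32 (SE, limma, adjusted p = 0.511).

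*Lbx1* (chromosome 19, 45232688 to 45235811, minus strand) separated the muscles fully before grafting. It had 19, 32.5 and 48 reads as lowest, median and highest value in pre-graft TA, or 4.28 ± 0.61 log2 RPM (SD, n = 8), and 0 reads in each of the 8 pre-graft EOM libraries. All 8 TA libraries lay above all EOM libraries, a difference of 5.53 ± 0.49 (SE, limma, adjusted p = 1.01e-07). Of the 13217 genes, 6 had a higher log2 fold change.

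In TA grafts *Lbx1* reads were found in 1 of 7 libraries, that of mouse 5 of Experiment 2, with 6 reads. All 7 TA grafts lay below all 8 pre-graft TA libraries. The difference was -4.81 ± 0.73 (SE, limma, adjusted p = 2.75e-04), or -3.73 relative to the median gene, and only 0.22% of the genes tested had a lower value. edgeR called it too (-4.39, adjusted p = 0.0136), and it remained called after scaling on the MuSC markers (-2.38, adjusted p = 0.0378). The TA graft of mouse 2 of Experiment 2 had 1066 *Pax7* reads and that of mouse 4 had 530, yet neither held an *Lbx1* read, where pre-graft TA had 1.504 to 3.21 *Lbx1* reads per 100 *Pax7* reads. The graft of mouse 5 held both genes, with 2 *Pax3* and 6 *Lbx1* reads.

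EOM grafts had 0 *Lbx1* reads in all 7 libraries. With each EOM graft set at 3 reads, or 1.41 to 2.63 RPM here, the mean lay 10.4-fold below that of pre-graft TA. This compares means of log2 RPM, and the lowest pre-graft TA library stood at 10.40 RPM. EOM grafts held 18 to 1100 *Pax7* reads, where pre-graft TA had 1.504 to 3.21 *Lbx1* reads per 100 *Pax7* reads. In grafts with few *Pax7* reads the absence of an *Lbx1* read therefore carries little weight. The values written for a library without a read were 0.41 higher on the log2 scale in EOM grafts than in pre-graft EOM (exact permutation p = 0.0438), a difference that carries depth alone because no library of either group held a read. With RPM plus 1 the difference was 0. The EOM change less the TA change was nevertheless 5.23 ± 0.73 (SE, limma, adjusted p = 1.04e-04). It is made up of the fall in TA and of the difference between libraries without a read, and edgeR (4.38, adjusted p = 1.00), DESeq2 (5.99, adjusted p = 0.168), the scaling on MuSC markers (4.81, limma, adjusted p = 0.0716) and the fit with all libraries (3.71, limma, adjusted p = 0.983) did not call it.

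**Figure D2:**
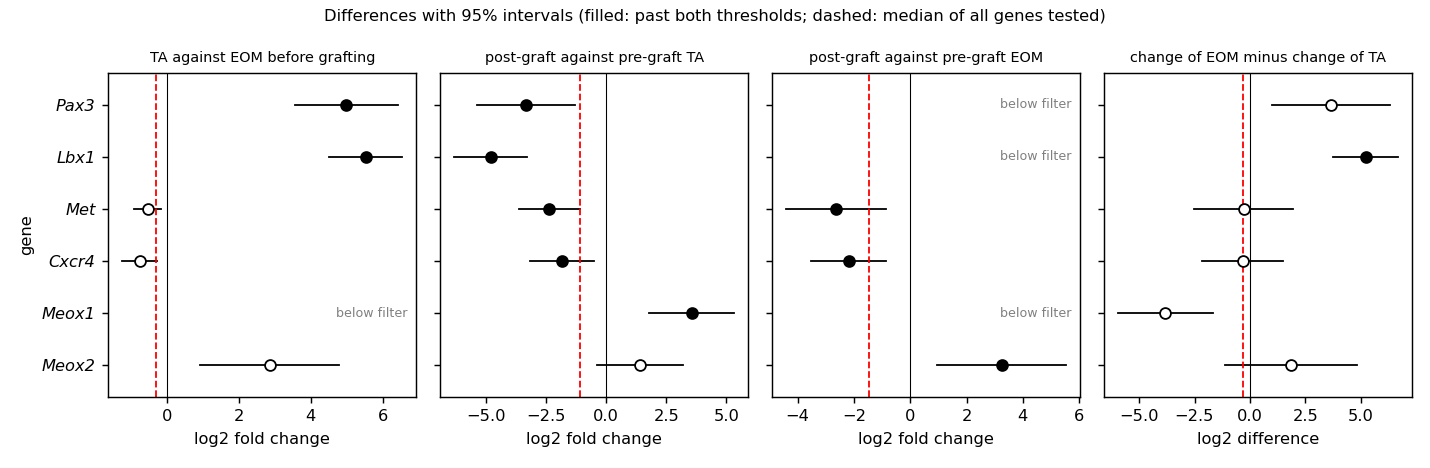
log2 fold change, or the difference of 2 log2 changes in the last panel, with the 95% interval for each gene by limma, where filled symbols passed both thresholds and the dashed line is the median of all genes tested. In the TA panel the values of *Met* and *Cxcr4* (-2.36 and -1.86) lay closer to the dashed line (-1.09) than those of *Lbx1* and *Meox1* (-4.81 and 3.55), which have no value in the EOM panel.

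The study compared EOM grafts with pre-graft cells after subtracting from each gene the mean change of the TA grafts. For *Pax3*, *Lbx1* and *Meox2*, the genes whose pre-graft means differed by more than 1 on the log2 scale, the position of each EOM graft was computed on a scale from 0 (mean of pre-graft EOM) to 100 (mean of pre-graft TA). As measured, *Lbx1* stood at 7.48 ± 6.59 (SD, n = 7), and after subtraction at 94.6 ± 6.59. Subtraction added 87.1 to every graft, although no EOM graft held an *Lbx1* read, so the position near TA was set by the fall in TA grafts.

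*Pax3* moved in the same manner, from 6.81 ± 28.05 as measured to 73.6 ± 28.05 after subtraction (SD, n = 7), of which 66.8 was added. The graft of mouse 5 of Experiment 2, with its 8 reads, stood at 66.9 as measured, and the other 6 at -13.6 to 12.6. *Meox2* went the other way, from 113 ± 103.4 to 64.2 ± 103.4, because TA grafts had a higher mean than pre-graft TA. Its 2 grafts without a read lay at -39.0 and -35.5 as measured and the 5 with reads at 158 to 187. These positions are descriptions, and no test was made of them.

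**Figure D3:**
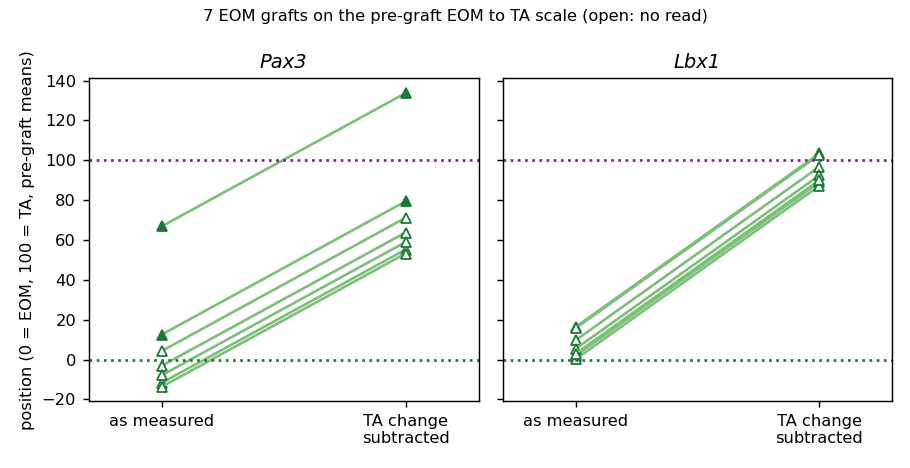
Position of the 7 EOM grafts (vertical axis, 0 for the mean of pre-graft EOM and 100 for the mean of pre-graft TA, dotted lines) for *Pax3* and *Lbx1*, as measured and after subtraction of the mean TA change, with 1 line per graft and open symbols for grafts without a read. The subtraction shifted all grafts by 66.8 for *Pax3* and by 87.1 for *Lbx1*.

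The genes most like *Lbx1* before grafting were *Hoxc9*, *Hoxa7* and *Hoxa10*, homeobox genes of trunk and limb position (Pearson r = 0.99 for each over 16 libraries, as a description). Like *Lbx1* they had no read in any pre-graft EOM library and reads in all 8 TA libraries. These genes and *Lbx1* therefore carry the same written value in each pre-graft EOM library, so r this high follows largely from detection in TA alone. After grafting they parted. *Hoxa7* had 5 to 47 reads in all 7 TA grafts, *Hoxc9* had reads in 6 and *Hoxa10* in 4, where *Lbx1* had them in 1. In EOM grafts *Hoxa7* had reads in 3, *Hoxc9* in 1, and *Hoxa10* and *Lbx1* in 0 of 7 libraries.

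*Met* (chromosome 6, 17463800 to 17573980, plus strand), the Hgf receptor, was well detected in both muscles. Lowest, median and highest read numbers were 243, 291 and 459 in pre-graft EOM and 85, 187.5 and 320 in pre-graft TA. Of the TA libraries 5 lay below all EOM libraries and 1 above, so the groups overlapped. The levels of 7.23 ± 0.19 and 6.69 ± 0.44 log2 RPM (SD, n = 8 each) differed by -0.53 ± 0.18 for TA against EOM (SE, limma, adjusted p = 0.0692), which was not called.

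After grafting *Met* had 0, 49 and 680 reads as lowest, median and highest value in EOM grafts and 8, 28 and 161 in TA grafts. The EOM graft with 680 reads, of mouse 4 of Experiment 1, exceeded every pre-graft library, and 6 of 7 EOM grafts and 4 of 7 TA grafts lay below all pre-graft libraries of their muscle. Levels were 4.59 ± 2.94 and 4.33 ± 1.95 log2 RPM (SD, n = 7 each). The log2 fold change against pre-graft cells was -2.64 ± 0.85 in EOM (SE, limma, adjusted p = 0.0130) and -2.36 ± 0.61 in TA (SE, limma, adjusted p = 7.06e-03), or -1.16 and -1.28 relative to the median gene. Neither was called by edgeR (EOM -0.29, adjusted p = 0.825, and TA -0.77, adjusted p = 0.392) nor after centring each library on its median (adjusted p = 0.217 and 0.0798 in limma). TA and EOM grafts differed by -0.25 ± 1.00 (SE, limma, adjusted p = 1.00), with a 95% interval from -2.29 to 1.78.

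*Met* was also set against *Pax7*. Per 100 *Pax7* reads it had lowest, median and highest values of 21.4, 37.5 and 61.2 in pre-graft EOM and of 0, 48.9 and 83.3 in EOM grafts. In TA these values were 6.85, 12.7 and 23.7 before and 4.31, 28.3 and 90.9 after grafting. The ranges overlapped in both muscles. The highest ratios in the grafts, 83.3 and 90.9, rest on 18 and 11 *Pax7* reads. *Pax7* itself was called lower in the grafts of both muscles, as given below, which raises any ratio to it. The EOM graft with the most *Met* reads also had the highest summed MuSC markers of all grafts, 12038 RPM, and the lowest endothelial sum of all grafts, 295 RPM. With scaling on the MuSC markers the difference was -0.62 in EOM (limma, adjusted p = 0.558) and 0.07 in TA (limma, adjusted p = 0.932).

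*Cxcr4* (chromosome 1, 128588199 to 128592293, minus strand), the Cxcl12 receptor, had 78, 112 and 178 reads as lowest, median and highest value in pre-graft EOM and 25, 56 and 81 in pre-graft TA. In 2 TA libraries the level lay below all EOM libraries, and the rest overlapped. Levels of 5.73 ± 0.47 and 4.99 ± 0.29 log2 RPM (SD, n = 8 each) gave -0.74 ± 0.24 for TA against EOM (SE, limma, adjusted p = 0.0551), which was not called.

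In the grafts *Cxcr4* was detected in all 14 libraries, with 3, 17 and 154 reads as lowest, median and highest value in EOM and 2, 29 and 48 in TA. Of the grafts, 5 of 7 EOM libraries and 6 of 7 TA libraries lay below the pre-graft range of their muscle. The log2 fold change was -2.19 ± 0.64 in EOM (SE, limma, adjusted p = 8.18e-03) and -1.86 ± 0.65 in TA (SE, limma, adjusted p = 0.0305), or -0.71 and -0.77 relative to the median gene. In each comparison 22.9% of the genes tested had a lower value. The TA call was lost without any 1 of 5 libraries (adjusted p = 0.0504 to 0.0641, limma), namely the TA grafts of mice 1 and 3 of Experiment 2 and the pre-graft TA libraries of mouse 4 of Experiment 1 and mice 4 and 5 of Experiment 2. Both calls were lost by edgeR (EOM -0.48, adjusted p = 0.625, and TA -0.64, adjusted p = 0.443).

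Per 100 *Pax7* reads, *Cxcr4* had 15.9 as median before and 14.0 after grafting in EOM and 4.20 and 11.7 in TA. With scaling on the MuSC markers the log2 fold change was -0.17 in EOM and 0.57 in TA (limma, adjusted p = 0.832 and 0.467). The changes of the 2 muscles in *Met* and *Cxcr4* differed by -0.28 ± 1.10 and -0.33 ± 0.91 (SE, limma, adjusted p = 0.969 and 0.960), with 95% intervals from -2.50 to 1.95 and from -2.16 to 1.499.

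**Figure D4:**
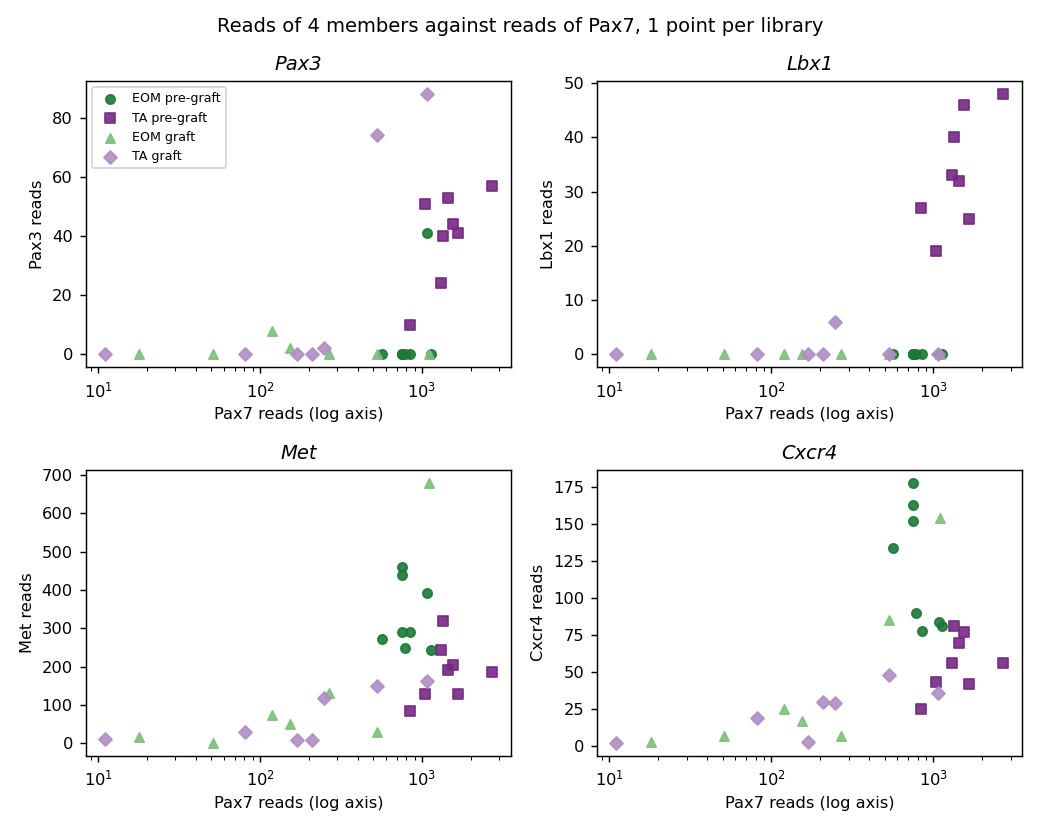
Reads of *Pax3*, *Lbx1*, *Met* and *Cxcr4* (vertical axis) against reads of *Pax7* (horizontal log axis) in the 30 libraries. Grafts spread from 11 to 1100 *Pax7* reads, and 2 TA grafts carry 88 and 74 *Pax3* reads but no *Lbx1* read.

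*Meox1* (chromosome 11, 101877510 to 101894374, minus strand) was near the limit of detection before grafting, with reads in 4 of 8 EOM libraries (at most 8) and in 2 of 8 TA libraries (3 and 25). The means differed by 0.11 log2 RPM (exact permutation p = 0.868, unadjusted). In TA grafts it was present in all 7 libraries, with 2, 21 and 58 reads as lowest, median and highest value and 3.48 ± 1.47 log2 RPM (SD, n = 7). Of the 7 TA grafts 5 exceeded every pre-graft TA library. The rise was 3.55 ± 0.87 on the log2 scale (SE, limma, adjusted p = 5.25e-03), 99.3% of the genes tested had a lower value, and edgeR gave 3.68 (adjusted p = 0.0498).

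In EOM grafts *Meox1* had 6 reads in 1 library, that of mouse 1 of Experiment 2, and no read in the other 6. Against pre-graft EOM the mean differed by -0.26 (exact permutation p = 0.687, unadjusted). TA grafts exceeded EOM grafts by 3.92 ± 1.01 (SE, limma), and 6 of 7 TA grafts lay above all EOM grafts, yet the adjusted p was 1.00 over 12377 genes, and 0.0451 where the spread was estimated over all 4 groups. The EOM change less the TA change was -3.81 ± 1.05 (SE, limma, adjusted p = 0.165), and it was called only without the pre-graft TA library of mouse 2 of Experiment 2, the one with 25 reads (-4.31, adjusted p = 0.0488). The 3 EOM grafts left out by the quality thresholds held 51, 5 and 16 *Meox1* reads, and with all libraries included the TA to EOM difference between grafts was 2.81 (limma, adjusted p = 0.934).

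*Meox2* (chromosome 12, 37108540 to 37181785, plus strand) had reads in 3 of 8 pre-graft EOM libraries, of 4, 5 and 19, and in 7 of 8 pre-graft TA libraries, with 0, 13.5 and 101 as lowest, median and highest value. The groups overlapped, and 2 TA libraries exceeded all EOM libraries. The difference of 2.86 ± 0.93 (SE, limma, adjusted p = 0.0611) was not called, while it was called with the donor mouse as a replicate block (3.29, limma, adjusted p = 0.0212). It was also called without the pre-graft TA library of mouse 3 of either experiment (adjusted p = 0.0351 for Experiment 1 and 0.0131 for Experiment 2, limma) or the EOM library of mouse 4 of Experiment 1 (adjusted p = 0.0206, limma).

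After grafting *Meox2* had reads in 5 of 7 EOM grafts, with 0, 34 and 72 as lowest, median and highest value, and in all 7 TA grafts, with 11, 28 and 76. The 5 EOM grafts with reads lay above every pre-graft EOM library. The rise in EOM was 3.25 ± 1.11 on the log2 scale (SE, limma, adjusted p = 0.0173) and was called by edgeR (4.83, adjusted p = 0.0226) but not with the donor mouse as a replicate block (2.68, limma, adjusted p = 0.120) or with all libraries (1.303, limma, adjusted p = 0.351). In TA the value was 1.41 ± 0.88 (SE, limma, adjusted p = 0.195), and 3.84 with scaling on the MuSC markers (limma, adjusted p = 4.67e-03). The changes of the 2 muscles differed by 1.84 ± 1.47 (SE, limma, adjusted p = 0.833).

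Endothelial markers were higher in the grafts of both muscles. *Meox2* was called higher in EOM grafts and not in TA grafts. *Meox1* was called higher in TA grafts, and in EOM it lay below the filter and was not tested by limma. For neither gene was the EOM change less the TA change called in the main fit (limma, adjusted p = 0.833 for *Meox2* and 0.165 for *Meox1*). The sum of 10 endothelial markers had medians of 745 RPM in pre-graft EOM, 637 in pre-graft TA, 3147 in EOM grafts and 4482 in TA grafts, and 8 of the 10 markers, among them *Pecam1*, *Cdh5* and *Kdr*, were called higher in the grafts of each muscle, while *Cd34* was called lower in EOM grafts. Each marker of the list had reads in some libraries of every group. In pre-graft EOM, however, *Cdh5* had them in 3 of 8 libraries (median 0 RPM) and *Pecam1* and *Kdr* in 5 of 8. *Cd34* and *Tek* had medians of 525 and 156 RPM in pre-graft EOM, against 215 and 65.1 RPM in pre-graft TA. Before grafting limma called *Cdh5* higher and *Cd34* and *Tek* lower in TA, where 1.26% and 3.31% of all genes were called so. The median log2 fold change of the 10 markers was 3.03, against -0.30 for all genes. The 2 EOM grafts without *Meox2* reads, of mouse 4 of Experiment 1 and mouse 2 of Experiment 2, had the lowest endothelial sums of the EOM grafts, 295 and 1019 RPM, but the EOM graft of mouse 5 of Experiment 2 had 34 *Meox2* reads at a similar sum, 1160 RPM. In TA grafts the highest endothelial sum, 7042 RPM, belonged to mouse 6 of Experiment 2, whose *Meox2* level was the lowest of the TA grafts (6.57 RPM, 13 reads). In pre-graft TA the library with 101 *Meox2* reads had the highest endothelial sum, 2644 RPM, and the library without a read the lowest, 150 RPM. The genes most like *Meox2* over the 16 pre-graft libraries were *Ushbp1* (Pearson r = 0.93), *Sult1a1* (0.92) and *Flt4*, a receptor of lymphatic and vascular endothelium (0.91). Pericyte and smooth muscle markers had median sums of 1177 and 1320 RPM before and 2260 and 3137 RPM after grafting in EOM and TA. *Rgs5* alone had medians of 80.4 RPM in pre-graft EOM and 1660 RPM in EOM grafts. In EOM grafts 2 of these 10 markers were called higher (*Rgs5* and *Myh11*) and 3 lower (*Mcam*, *Notch3* and *Acta2*). In TA grafts 3 were called higher (*Rgs5*, *Kcnj8* and *Pdgfrb*) and 0 lower. Of 9 fibro-adipogenic (connective tissue) markers tested in TA grafts, 5 were called higher and 2 lower. In EOM grafts 1 of 10 was called higher and 3 lower. Of 9 muscle fibre markers tested, 2 were called higher and 1 lower in TA grafts. In EOM grafts 7 of 9 were called higher and 0 lower. Of all genes 3.79% were called higher and 30.9% lower in TA grafts, and 3.51% and 55.8% in EOM grafts. The part of any of these cells in the *Meox1* and *Meox2* reads was not tested.

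**Figure D5:**
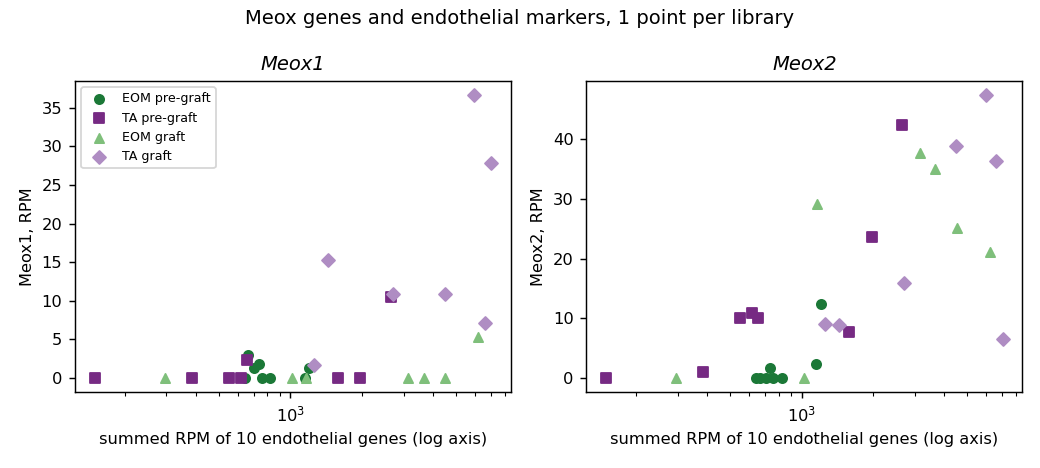
*Meox1* and *Meox2* in RPM (vertical axis) against the summed RPM of 10 endothelial markers (horizontal log axis) in the 30 libraries. *Meox2* was 0 in the libraries with sums of 150, 295 and 1019 RPM. It was also 0 in 5 of 8 pre-graft EOM libraries, with sums of 642 to 823 RPM. *Meox1* was above 5 RPM in 6 of 7 TA grafts. The sums include *Cd34* and *Tek*, which were called lower in TA than in EOM before grafting.

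For *Met* and *Cxcr4* the genes most like them before grafting were of a different kind. *Met* went with *Senp2*, *Rab1* and *Hnrpdl* (Pearson r = 0.94, 0.94 and 0.90), genes of SUMO removal, vesicle transport and RNA binding that were detected in every library compared. *Cxcr4* went with *C130021I20Rik*, *Tmem165* and *Ebf4* (r = 0.91, 0.91 and 0.90). *C130021I20Rik* had reads in 7 of 8 pre-graft EOM and 0 of 8 pre-graft TA libraries.

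Partners of the 2 receptors were measured through 15 of 16 listed genes. Before grafting 13 were tested, *Plau*, the protease that can activate Hgf, was called higher in TA (1.02 ± 0.31, SE, limma, adjusted p = 0.0433) and the syndecan gene *Sdc3* lower (-3.35 ± 0.68, adjusted p = 2.88e-03). The median of the 13 was 0.05 against -0.30 for all genes. *Hgf* itself had reads in 2 of 8 EOM and 7 of 8 TA libraries, at most 20, with a difference of 1.74 ± 0.79 (SE, limma, adjusted p = 0.177). *Cxcl12* had 83 to 1054 reads in the 16 libraries and a difference of 0.75 ± 0.34 (adjusted p = 0.181).

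After grafting 4 of 13 partners were called lower in TA (*Sdc4*, *Shc1*, *Gab1* and *Grb2*) and 5 of 12 in EOM (these and *Sdc3*), and 0 were called higher in either muscle, where 30.9% and 55.8% of all genes were called lower. *Gab1*, *Grb2* and *Shc1* encode adaptors that act below Met, and their log2 fold changes of -1.37 to -1.44 in TA and -1.01 to -1.85 in EOM lay around the medians of all genes (-1.09 and -1.48). *Sdc4*, also a MuSC marker, changed by -2.54 ± 0.61 in TA and -2.04 ± 0.41 in EOM (SE, limma, adjusted p = 4.78e-03 and 9.75e-04). *Cxcl12* was not called, with 0.90 ± 0.41 in TA and 1.05 ± 0.59 in EOM (SE, limma, adjusted p = 0.0831 and 0.121). *Hgf* in TA stood at -1.504 ± 0.83 (SE, limma, adjusted p = 0.147).

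Among 16 genes of the network around *Pax3* in the somite, 11 were tested before grafting. *Eya2*, a transcriptional cofactor, was called lower in TA by limma (-5.37 ± 0.62, SE, adjusted p = 4.22e-06), as was the forkhead gene *Foxc1* (-3.94 ± 0.62, adjusted p = 2.07e-04), and 0 genes were called higher. The median was -0.26 against -0.30 for all genes. In TA grafts 4 of 12 were called lower, among them *Eya1* (-3.50 ± 0.86, SE, limma, adjusted p = 5.60e-03), *Eya4* and *Meis1*, and 3 higher, *Tcf15* (3.39 ± 0.90, adjusted p = 8.14e-03), *Foxc1* and *Dach1*. In EOM grafts 5 of 11 were called lower, among them *Eya2* (-4.54 ± 0.73, SE, limma, adjusted p = 2.13e-04), *Eya1* and *Eya4*, and *Tcf15* was called higher (3.94 ± 1.01, adjusted p = 3.91e-03). Of all genes 30.9% were called lower and 3.79% higher in TA grafts, and 55.8% and 3.51% in EOM grafts. *Tcf15*, a basic helix-loop-helix gene of the somite that is also active in endothelium, was called higher in the grafts of both muscles, where the median endothelial sums given above were also higher, and their part in the *Tcf15* reads was not tested.

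*Pax7* and 8 targets of Pax3 were all tested. Before grafting *Pax7* was called higher in TA (1.15 ± 0.22, SE, limma, adjusted p = 1.53e-03) and the ephrin gene *Efna5* lower (-2.59 ± 0.79, adjusted p = 0.0475), with a median of -0.01. In grafts 6 of 9 were called lower in each muscle and 0 higher, with medians of -2.27 in TA and -1.91 in EOM, where 30.9% and 55.8% of all genes were called lower and their medians were -1.09 and -1.48. *Fgfr4*, a growth factor receptor gene bound by Pax3, changed by -4.26 ± 0.88 in TA and -3.33 ± 0.72 in EOM (SE, limma, adjusted p = 2.04e-03 and 1.45e-03). *Pax7* changed by -3.07 ± 0.57 and -1.94 ± 0.58 (SE, limma, adjusted p = 9.85e-04 and 9.08e-03), and *Myf5*, *Itm2a* and *Spry1* were called lower in both muscles, *Epha4* in TA and *Dmrt2* in EOM. None of the 3 lists had a gene called between TA and EOM grafts or for the difference of the changes.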

How the data were processed

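RNA libraries were assigned to muscle, stage, mouse and experiment from their labels. The authors trimmed reads with Trim Galore 0.4.4 and aligned them with HISAT2 2.1.0 to GRCm38, and the deposited gene table holds log2 RPM per library. For each library the authors also deposited total reads as counts, and the percent falling in exons or in mitochondrial genes. The 10 libraries that failed the quality thresholds of the study and the bisulfite libraries were not compared. Of 25965 rows, 66 repeats of a symbol were dropped.

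A gene without a read is written as 0.9 of a read, from which reads were recovered, and 99.99% of values came out whole within 0.05. RPM of the recovered reads sums to 1072417 to 1526294 per library, so the authors' divisor was not the reads on genes.

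limma 3.58.1 (R 4.3.3) was fitted to log2 RPM with moderated variances and a trend, keeping genes whose log2 RPM exceeded 1 in 4 or more of the libraries. Genes below this filter were compared by exact permutation (scipy 1.17.1). edgeR 4.0.16 and DESeq2 1.42.0 were run on recovered reads. On simulated counts limma and edgeR recovered large changes with the right sign, and DESeq2 and the other settings were not run on them. The changes were placed only in better detected genes, so recovery for genes with few reads was not checked. limma called more unchanged genes than edgeR where grafts were compared with pre-graft cells. edgeR values are therefore given beside those calls of the 6 genes, and the calls of listed genes are from limma alone.

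Libraries of a donor share a replicate number, since they come from 1 animal, and the donor was tried as a block. Deviations from the group means correlated little within donors (r from -0.22 to 0.18 over 39 pairs). The named genes are the 6 genes, the called genes of the 3 lists (some are not reported here), *Hgf*, *Cxcl12* and *Pax7*, and the 3 genes most correlated with each gene tested before grafting. The genes and lists were chosen with earlier results of these data known.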

Additional observations from a re-analysis of the deposited data

Results flagged for a closer look

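Within groups of 4 to 10 libraries the highest or lowest value was tested for a gap to the others (Dixon), over 22 groups. Chance marks about 1 in 20 where values are normally distributed. That rate does not apply to groups in which most libraries held no read. In pre-graft EOM, *Pax3* stood apart in mouse 2 of Experiment 2, at 3.84 log2 RPM (41 reads). In EOM grafts *Pax3* stood apart in mouse 5 of Experiment 2 at 2.77 log2 RPM (8 reads), and *Meox1* in mouse 1 of Experiment 2 at 2.39 log2 RPM (6 reads). In TA grafts *Lbx1* stood apart in mouse 5 of Experiment 2 at 1.94 log2 RPM (6 reads). In all 4 cases most other libraries of the group held no read.

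For *Lbx1* limma called the EOM change less the TA change, at 5.23 on the log2 scale (adjusted p = 1.04e-04). No EOM library compared held a read before or after grafting, so a fall in EOM could not be measured, and the value consists of the fall in TA and of the depth of EOM libraries without a read. The difference was not called by edgeR, by DESeq2, with MuSC scaling or with all libraries.

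Among libraries that failed the quality thresholds, some values exceeded those of the passing libraries of their group. *Meox1* reached 29.2 RPM (51 reads) and 7.75 RPM (16 reads) in the EOM grafts of mice 1 and 5 of Experiment 1, against at most 5.26 RPM in passing EOM grafts. *Meox2* reached 87.3 RPM (128 reads) in the TA graft of mouse 4 of Experiment 1, against at most 47.4 RPM. In the pre-graft EOM library of mouse 3 of Experiment 2 *Meox2* reached 41.6 RPM (95 reads), against at most 12.3 RPM, and that library had summed endothelial markers of 4125 RPM and leukocyte markers of 1161 RPM. No difference was tested for these libraries.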

How the results depend on the processing

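Of the 6 genes, 2 were called before grafting, 5 in TA grafts, 3 in EOM grafts, 0 between grafts and 1 for the difference of the changes. With all libraries these were 1 before grafting and 0 for the difference of the changes. The failed pre-graft EOM library of mouse 1 of Experiment 1 enters there with 10.7 log2 RPM for each gene without a read. The same holds for the positions with all libraries. In TA grafts the number was 3 with Experiment 2 alone, 3 without mitochondrial genes, 2 after centring, 2 by edgeR, 2 by DESeq2 and 3 with scaling on MuSC markers, and in EOM grafts 1 under each of the last 5 settings. For the difference of the changes edgeR, DESeq2 and MuSC scaling gave 0, and 1 fit over 4 groups gave 1 between grafts. Leaving out 1 library gave 2 to 3, 4 to 5, 3 to 3, 0 to 0 and 1 to 2 calls. MuSC scaling and the omission of the TA graft lowest in MuSC markers were chosen after seeing the data. The causes were not tested.

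With the donor mouse as a replicate block, *Meox2* was called before grafting (3.29) and lost in EOM grafts (2.68), no other call of the 6 genes changed, and calls over all genes in EOM grafts fell from 7762 to 4760. Between grafts the block turned *Met* to 0.47 and *Cxcr4* to 0.019, as did Experiment 2 alone (0.47 and 0.019).

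Other reversals were of values not called, except *Met* (0.068) and *Cxcr4* (0.57) in TA grafts with MuSC scaling. Between grafts *Met* was 0.062 with MuSC scaling, and *Meox2* -0.32 by edgeR and -0.35 by DESeq2. For the difference of the changes *Meox2* was -0.094 with all libraries, *Met* 0.0085 without mitochondrial genes, 0.13 centred, 0.44 by edgeR and 0.44 by DESeq2, and *Cxcr4* 0.079, 0.13 and 0.14 under the last 3. Leaving out 1 library moved *Met* from -1.14 to 0.37 and *Cxcr4* from -0.87 to 0.027 between grafts, and from -0.90 to 0.61 and -0.77 to 0.13 for the difference of the changes.

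With RPM plus 1, *Meox1* before grafting was -0.075 and *Lbx1* in EOM grafts 0. Leaving out 1 library gave -0.38 to 0.37 for *Meox1*, -0.16 to 0.97 for *Pax3* and 0.33 to 0.48 for *Lbx1* in EOM grafts, and -0.11 to 0.41 for *Lbx1* between grafts, and *Lbx1* in EOM grafts passed an unadjusted 0.05 in 7 of 15 cases. Positions without subtraction were 6.81 (*Pax3*) and 7.48 (*Lbx1*), and 86.7 for *Lbx1* with all libraries, and that of *Meox2* was -6.48 with all libraries and 96.5 with Experiment 2 alone, against 64.2. Leaving out 1 graft gave 63.6 to 77.1 (*Pax3*), 93.1 to 95.8 (*Lbx1*) and 52.0 to 89.6 (*Meox2*).

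Over all genes, calls before grafting went from 603 to 392 with Experiment 2 alone, 202 with all libraries and 206 in 1 fit over 4 groups. Those in TA grafts (496 higher, 4046 lower) became 1003 and 743 after centring and 782 and 402 by edgeR, and those in EOM grafts (460 and 7302) 871 and 634, and 907 and 380. For the difference of the changes 30 calls became 1 with all libraries and 104 by DESeq2. Genes with few or no reads are limited by depth, since 3 reads corresponded to 1.41 to 2.63 RPM in EOM grafts.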
